A study of Mus musculus with 2 samples.

Results

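Transcripts of ER-associated degradation (ERAD), the route by which misfolded proteins are taken out of the endoplasmic reticulum and destroyed, were compared between mouse B cells carrying a miR-181b retrovirus and B cells carrying a control retrovirus. The genes were Sel1l, Syvn1, Edem1, Edem2, Edem3, Herpud1, Derl1, Derl2, Derl3 and Os9, and every probe that the array carried for them was read. The gene name printed in the scanner files gave 16 probes of 8 genes. The other 2 genes stood there under older names, Sel1l as Sel1h and Os9 as 4632413K17Rik, and were found through their accession or synonym in RefSeq, which added 6 probes. In all, 10 genes of 27670 and 22 probes of 41174 were examined.

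Splenic B cells of C57BL/6 mice were activated with LPS (25 µg/ml) and IL-4 (10 ng/ml), transduced in the presence of polybrene (8 µg/ml) with either the miR181b-GFP or the control-GFP vector, and sorted for GFP 2 days later, the cells having been purified by depletion of CD43-bearing cells. One RNA per vector was labelled with Cy3 and Cy5 and hybridised on 2 Agilent 2-colour arrays with the dyes exchanged, miR-181b RNA being in Cy5 on array 1 and in Cy3 on array 2. The arrays are therefore technical replicates of 1 pair of RNAs, and no test between the vectors could be made: the differences below compare 2 RNAs, and their spread is that of labelling and hybridisation, not of mice or cultures. Both RNAs came from activated, transduced and sorted cells; with 1 RNA each, the insert of the vector and any difference in culture, transduction or sorting cannot be told apart. In RNA from a mixed culture, fewer cells of a type and less RNA per cell cannot be told apart.

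ERAD begins in the lumen, where lectins and mannosidase-like proteins recognise glycoproteins that fail to fold. Their clients pass through a membrane channel built around a ubiquitin ligase and the derlins, and are handed to the proteasome in the cytosol. Several ERAD genes are known targets of the unfolded protein response, whose transcription factors XBP1 and ATF6 bind ER stress elements, and B cells enlarge this machinery as they turn into antibody-secreting cells.

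The mature sequence of the microRNA in the vector is shown because its seed is what pairs with targets. It is written with the seed (bases 2 to 8) in capitals, from RefSeq at chr1:137966650-137966673, plus strand, in GRCm38.p6.
miR-181b-5p: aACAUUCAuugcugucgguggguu
The DNA complement of that seed, TGAATGT, was searched on the sense strand of the 60-base probes. It lay in 0 of the 22 ERAD probes and in 393 of 41174 probes on the array (0.954%). Without its first or last base, it lay in the brightest Derl1 probe and in the dimmer Derl2 probe. The share of all probes with that shorter match was not computed. Both searches cover the probes alone and not the transcripts.

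The unfolded protein response elements in the promoters are shown next, for the 3 genes that held one. RefSeq windows of 300 bases (250 before to 50 after the start site, GRCm38.p6) were matched for 9 of the 10 genes, Derl1 being the other one, and both strands were searched. The ER stress element (ERSE) was taken as CCAAT, 9 bases and CCACG, and ERSE-II as ATTGG, 1 base and CCACG. Capitals mark the 2 conserved parts of each element.
Syvn1 (chr19:6046517-6046565, plus strand): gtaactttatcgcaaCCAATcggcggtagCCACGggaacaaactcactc
Derl3 (chr10:75893227-75893275, plus strand; the element is on the minus strand): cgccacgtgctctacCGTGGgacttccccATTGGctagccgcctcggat
Herpud1 (chr8:94386362-94386402, plus strand): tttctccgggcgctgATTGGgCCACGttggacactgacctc
The ERSE occurred in 0.119% of 32851 promoter windows in the table and ERSE-II in 0.0365%. The CCACG part alone, which both elements hold, was common: 9 of the 10 ERAD windows (Derl2 has more than 1) and 32.8% of all windows held it. TGACGTGG, an element bound by XBP1 and ATF6, was in none of the ERAD windows and in 0.676% of all windows. A match describes these letters and says nothing of binding.

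A probe was called measured when it was well above background in both dyes on both arrays, which 20 of the 22 ERAD probes were. The exceptions were 1 probe each of Edem2 and Os9, and both genes had another that was measured. The log2 ratio is given as miR-181b over control, so that 1 unit is a doubling and a positive value is higher in miR-181b cells; ± is the distance of each array from the mean of both (n = 2 arrays). Each array was first corrected by loess, which sets the typical ratio at every intensity to 0. Of the 20 measured probes, 16 were higher in miR-181b cells on both arrays, 1 was lower on both, and 3 had opposite signs on the 2 arrays. Mean ratios were positive for 19 of the 20. These probes belong to 10 genes, of which 6 had more than 1 measured probe, so they are not separate members. The share over all measured probes was not computed. By gene, 24.4% of all measured genes were higher on both arrays and 27.4% were lower on both.

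**Figure D1:**
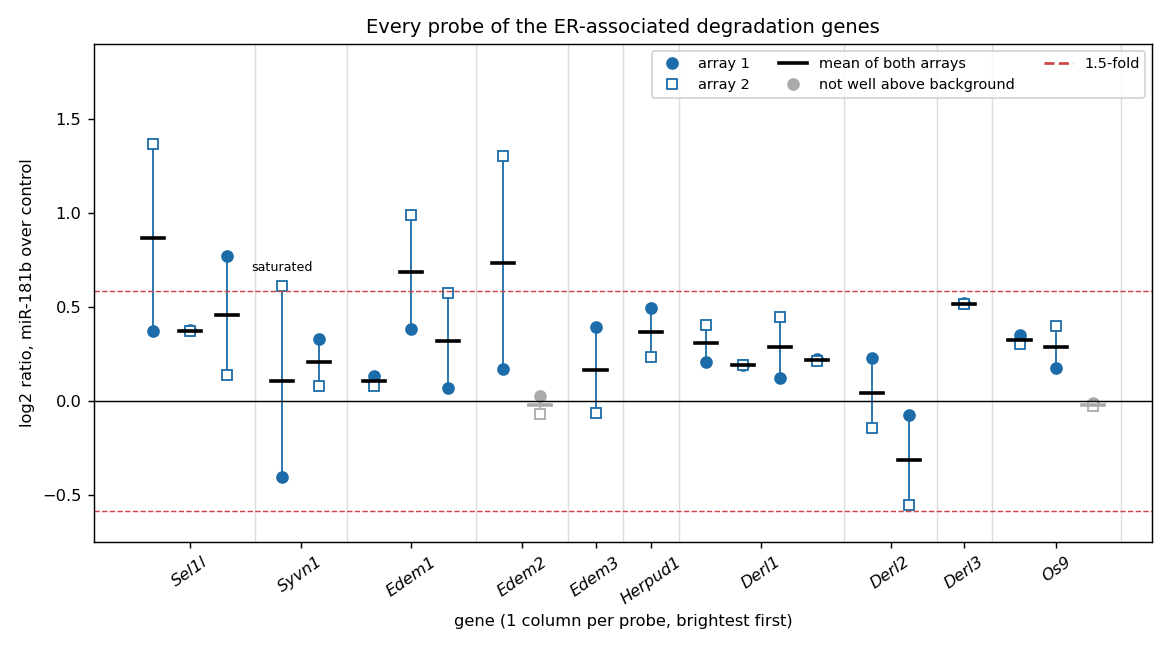
Log2 ratio of miR-181b over control RNA for all 22 probes of the 10 ERAD genes, 1 column per probe, with array 1 as filled circles, array 2 as open squares and their mean as a bar. Grey marks the 2 probes not well above background and the dashed lines mark 1.5-fold; the Derl2 probe at -0.32 is the single measured probe lower on both arrays.

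With each gene represented by its brightest measured probe, 7 of the 10 genes were higher in miR-181b cells on both arrays, 0 were lower on both, and Syvn1, Edem3 and Derl2 changed sign. Among all 17579 measured genes, 24.4% were higher on both arrays and 27.4% were lower on both. The median log2 ratio of the 10 genes was 0.32 (0.29 on array 1 and 0.35 on array 2), against -0.01 over all genes (0.01 and -0.02). The same 7 genes had both miR-181b levels above both control levels, which held for 21% of all genes.

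Past a 1.5-fold mean ratio with the same sign on both arrays stood 2 ERAD genes, Sel1l and Edem2, both higher in miR-181b cells, and 0 lower ones. The background for this rule was 0.819% of all genes higher (144 of 17579) and 0.512% lower. Under a stricter rule, a 2-fold mean with 1.5-fold on each array, 0 of the 10 were called in either direction, where 0.00569% of all genes were higher and 0.0967% lower. Neither gene reached 1.5-fold on array 1. On array 1 alone 0 of the 10 genes did, against 0.592% of all genes. On array 2 alone 3 did (Sel1l, Edem2 and Syvn1, whose control channel was saturated there), against 5.03% of all genes.

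Syvn1 (Hrd1), the ubiquitin ligase at the centre of the ERAD channel, could not be ordered between the RNAs from its bright probe. Its normalised log2 intensity on array 1 was 15.49 in miR-181b RNA and 15.89 in control RNA, and on array 2 it was 16.01 and 15.40. The groups overlapped, with log2 ratios of -0.40 and 0.61 (0.10 ± 0.51). This probe was saturated in Cy5 on both arrays, that is in miR-181b RNA on array 1 and in control RNA on array 2, and each array read the saturated dye as the lower level. A dimmer Syvn1 probe was not saturated and is shown for that reason; the place of the printed probes in their transcripts was not determined.
Syvn1 probe: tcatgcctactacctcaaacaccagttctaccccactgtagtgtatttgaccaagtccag
It read 7.83 and 7.76 in miR-181b RNA and 7.50 and 7.68 in control RNA, log2 ratios of 0.33 and 0.08 (0.20 ± 0.13). Both miR-181b levels lay above both control levels there, by an amount under 1.5-fold.

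Sel1l, the adaptor that holds SYVN1 stable and brings clients to it, had the highest ratio of the 10 genes by the brightest probe. By the mean of all measured probes Edem2, at 0.74, stood above Sel1l, at 0.57. The brightest Sel1l probe, designed to transcript variant 2, gave 11.07 and 11.47 in miR-181b RNA against 10.70 and 10.11 in control RNA. The groups did not overlap, but the ratio was 0.37 on array 1 and 1.37 on array 2 (0.87 ± 0.50, 1.83-fold). The probe to variant 1 gave 10.77 and 10.80 against 10.39 and 10.42, a ratio of 0.37 on each array (0.37 ± 0.00, 1.30-fold). The dimmest of the 3, to a cDNA clone, gave 0.77 and 0.14 (0.46 ± 0.32). All 3 Sel1l probes were thus higher in miR-181b cells on both arrays, and they disagreed on the size, since 1 of the 3 passed 1.5-fold.

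Herpud1, a ubiquitin-like membrane protein that helps to assemble the SYVN1 complex and one of the best-known ER stress genes, was read by 1 probe. Its levels were 14.81 and 14.70 in miR-181b RNA and 14.32 and 14.47 in control RNA, without overlap. The ratios of 0.49 and 0.23 gave 0.36 ± 0.13 (1.29-fold), short of 1.5-fold.

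The EDEM proteins, which trim mannose from misfolded glycoproteins or bind them and so mark them for disposal, differed among themselves. Edem2 was measured by 1 probe, whose sequence is shown because the call for this gene rests on it alone.
Edem2 probe: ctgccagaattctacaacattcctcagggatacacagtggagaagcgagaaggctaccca
It read 11.04 and 11.56 in miR-181b RNA and 10.87 and 10.26 in control RNA, which did not overlap. As for Sel1l the arrays disagreed on the size, at 0.17 and 1.30 (0.74 ± 0.57, 1.67-fold).

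Edem1 was split by its probes. The brightest gave 13.95 and 13.89 in miR-181b RNA and 13.82 and 13.81 in control RNA, ratios of 0.13 and 0.08 (0.11 ± 0.02, 1.08-fold). A second probe stood past 1.5-fold and is shown for that reason.
Edem1 probe: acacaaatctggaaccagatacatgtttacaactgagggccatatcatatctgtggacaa
It gave 14.09 and 14.30 against 13.71 and 13.31, ratios of 0.38 and 0.99 (0.69 ± 0.30, 1.61-fold), while the dim remaining probe gave 0.07 and 0.57 (0.32 ± 0.25). All 3 Edem1 probes were higher on both arrays, so the rule of the brightest probe set the size and not the sign. Edem3 had 1 probe, at 10.48 and 10.15 in miR-181b RNA and 10.09 and 10.22 in control RNA. Its levels overlapped, with ratios of 0.39 and -0.07 (0.16 ± 0.23).

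Os9, a lectin that reads trimmed mannose chains and delivers the glycoprotein to SEL1L, gave closely repeated values. Its brightest probe read 14.14 and 14.15 in miR-181b RNA and 13.79 and 13.85 in control RNA. The ratios were 0.35 and 0.30 (0.33 ± 0.02, 1.25-fold), and a dim second probe gave 0.18 and 0.40 (0.29 ± 0.11). Both measured probes of Os9 were thus higher on both arrays by an amount under 1.5-fold.

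**Figure D2:**
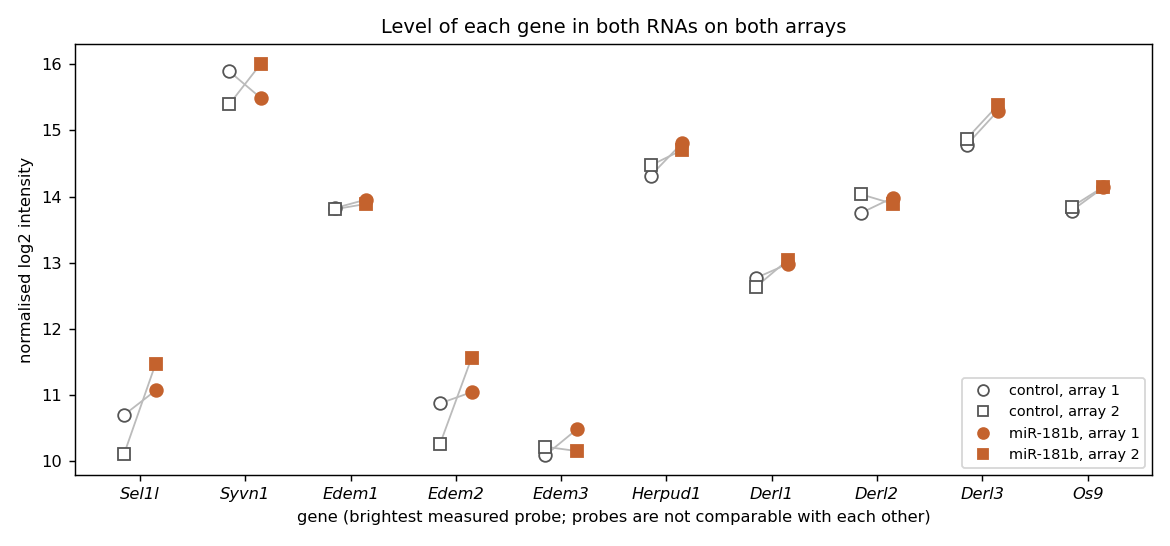
Normalised log2 intensity of the brightest measured probe of each ERAD gene, with control RNA open and miR-181b RNA filled, array 1 as circles and array 2 as squares, and a line joining the RNAs of 1 array. The lines of the arrays slope in opposite directions for Syvn1, Edem3 and Derl2, whose groups overlap. Levels of different probes cannot be set against each other.

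The derlins, membrane proteins that form part of the channel and thin the membrane around it, did not move alike. Derl3, the family member of secretory cells, had the smallest spread between arrays of the 10 genes. It read 15.30 and 15.39 in miR-181b RNA and 14.78 and 14.87 in control RNA. The ratios of 0.52 and 0.51 (0.52 ± 0.00, 1.43-fold) agree between the dyes and fall just short of 1.5-fold.

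Derl1, the broadly expressed derlin, was read by 4 probes that were all higher on both arrays. The brightest gave 12.98 and 13.04 in miR-181b RNA and 12.77 and 12.63 in control RNA, ratios of 0.21 and 0.41 (0.31 ± 0.10, 1.24-fold). Mean ratios of the other 3 were 0.19, 0.28 and 0.22. All of the Derl1 probes were therefore between 0.19 and 0.31, against 0.37 to 0.87 for Sel1l and 0.11 to 0.69 for Edem1.

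Derl2, the near relative of Derl3, was the only gene whose measured probes differed in the sign of their mean. The brightest read 13.98 and 13.89 in miR-181b RNA and 13.75 and 14.03 in control RNA, with overlap and ratios of 0.23 and -0.14 (0.04 ± 0.19). A dimmer probe read 10.01 and 9.74 against 10.08 and 10.30, ratios of -0.07 and -0.56 (-0.32 ± 0.24). That probe was the single measured ERAD probe lower in miR-181b cells on both arrays. Derl2 therefore had no direction that its probes shared.

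**Figure D3:**
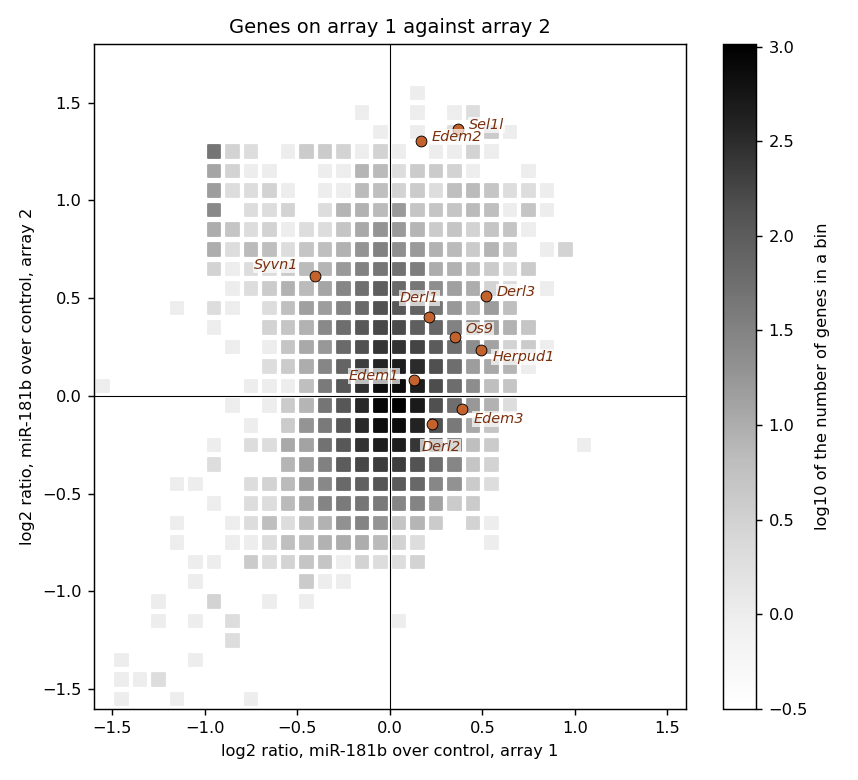
Log2 ratio of miR-181b over control on array 1 (x axis) against array 2 (y axis) for all 17579 measured genes, counted in squares of side 0.1 and shaded by log10 of the number of genes, with the 10 ERAD genes as points; 8 genes lie outside the axes. Sel1l (0.37 on array 1, 1.37 on array 2) and Edem2 (0.17 and 1.30) have larger ratios on array 2, while Derl3 (0.52 and 0.51) and Os9 (0.35 and 0.30) lie near equal values on both arrays.

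Each of the 10 genes was brighter than the median gene, and with measured genes split by brightness into 10 equal bins, 6 of them (Syvn1, Edem1, Herpud1, Derl2, Derl3 and Os9) were in bin 10, the brightest. In that bin 3.98% of genes were 1.5-fold higher in miR-181b cells by the same rule. In bin 7, where Sel1l and Edem2 lay, 0.569% were. To read dye bias, the sign of array 2 was left unturned. By that reading 1.45% of all genes and 12.2% of bin 10 passed 1.5-fold with the same dye ahead on both arrays. Of the 10 ERAD genes 0 did, but only Syvn1, Edem3 and Derl2, of opposite sign on the arrays, could. That count therefore says nothing of dye bias in the other 7. The distance of each array from the mean was 0.57 for Edem2, 0.51 for Syvn1 and 0.50 for Sel1l, where 1.5-fold is 0.585.

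The sign of most members depended on the loess step. Without it all genes had a median of -0.20, and the bins' medians ran from 0.04 in the dimmest to -0.40 in the brightest. The median of the ERAD genes was then -0.08, with 3 of 10 positive: Sel1l at 0.55, Edem2 at 0.41 and Derl3 at 0.09. Herpud1 was at -0.05, Derl1 and Os9 at -0.08, Edem3 at -0.14, Edem1 at -0.30, Syvn1 at -0.33 and Derl2 at -0.36, and 0 passed 1.5-fold. In the other settings that kept both arrays, the sign turned for Derl2 with the mean of its probes (-0.14) and with a normexp offset of 0 (-0.00), and for Syvn1 when the arrays were scaled to each other (-0.00). Relative to all genes without loess, 7 of the 10 lay above the median. Relative to the median of genes in their own bin, 10 of 10 lay above it, by 0.04 to 0.87 with a median of 0.32. That description was added after the values were seen. Subtracting the bin's median removes the same trend with brightness that loess removes, so it is no check apart from loess.

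**Figure D4:**
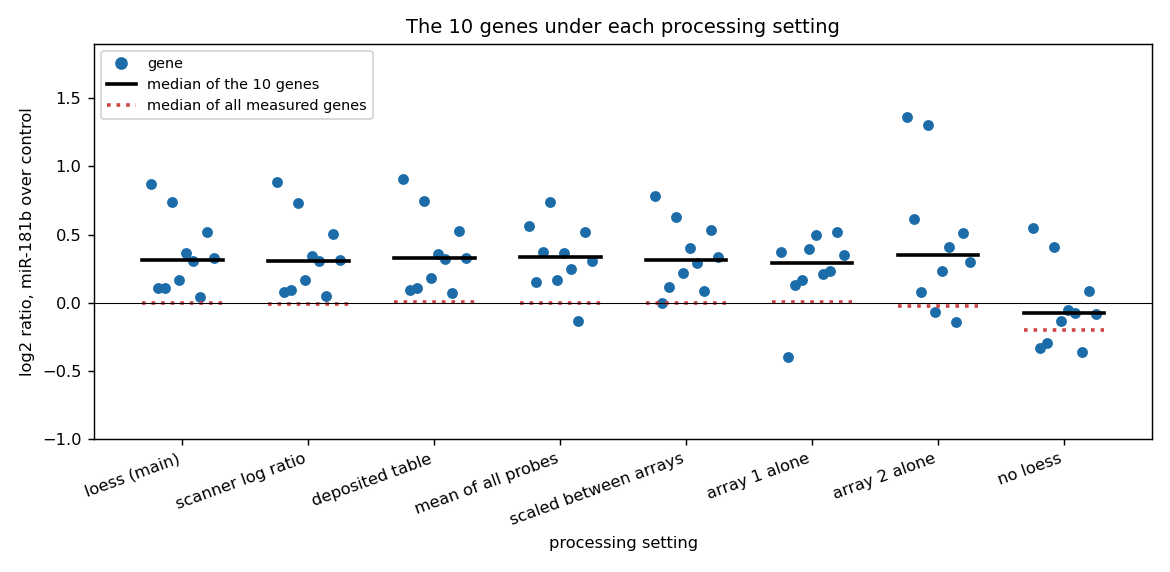
Log2 ratio of miR-181b over control for each of the 10 ERAD genes (points) under 8 processing settings, with the median of the 10 genes as a solid bar and that of all measured genes as a dotted bar. The bars of the ERAD genes lie between 0.29 and 0.35 in the other settings and at -0.08 without loess, where all genes are at -0.20.

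Other genes of the ERAD route were taken from a list of 57 ubiquitin-conjugating enzymes, ligases, chaperones, deubiquitinases and proteasome-delivery factors. Their median lay closer to that of all genes than the median of the 10 ERAD genes did. Of the 57 genes, 56 were measured, Sel1l2 not being well above background. On both arrays 24 were higher and 6 were lower in miR-181b cells, and 26 had opposite signs. Over all genes 24.4% were higher on both arrays and 27.4% were lower on both. Past 1.5-fold stood 2 higher genes and 0 lower ones, against the backgrounds of 0.819% and 0.512%. The median of the 56 was 0.12 (0.09 on array 1 and 0.08 on array 2), with a range from -0.23 to 0.67.

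The 2 genes past 1.5-fold both encode partners of the ER chaperone BiP. Sdf2l1, which works with the BiP cochaperones, had ratios of 0.58 and 0.75 (0.67 ± 0.08), and Dnajb9, the BiP cochaperone ERdj4, had 0.43 and 0.80 (0.62 ± 0.18). Next were Rnf185, a membrane ubiquitin ligase, at 0.12 and 0.81 (0.46 ± 0.34), and Aup1, which recruits a ubiquitin-conjugating enzyme, at 0.07 and 0.69 (0.38 ± 0.31). The spread of Rnf185 and Aup1 was close to their mean, unlike that of Sdf2l1.

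The lowest values of the list, among genes with the same sign on both arrays, were smaller in size. Atxn3, a deubiquitinase that binds the VCP segregase, was at -0.00 and -0.46 (-0.23 ± 0.23), and Marchf6, the ligase of a separate ERAD branch, at -0.00 and -0.28 (-0.14 ± 0.14). Ubl4a, which keeps extracted proteins soluble, was at -0.14 and -0.12 (-0.13 ± 0.01), and Yod1, another VCP-bound deubiquitinase, at -0.04 and -0.14 (-0.09 ± 0.05). The signs of Marchf6 and Ubl4a turned with the mean of all their probes, to 0.01 and 0.02. Without loess the list's median was -0.23 against -0.20 for all genes, and Sdf2l1 and Dnajb9 were each at 0.26 with neither past 1.5-fold.

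Among 10 regulators of the unfolded protein response, all measured, 5 were higher on both arrays, 0 lower on both and 5 of opposite sign. Over all genes 24.4% were higher on both arrays, 27.4% were lower on both, and 0.819% were called 1.5-fold higher. Their median came to 0.16, with 0.01 on array 1 and 0.33 on array 2. Xbp1, the transcription factor that drives many ERAD genes in plasma cells, was the 1 gene past 1.5-fold, with ratios of 0.50 and 1.48 (0.99 ± 0.49), and it stayed positive without loess at 0.57. Atf6b, a relative of ATF6, was at 0.01 and 0.67 (0.34 ± 0.33), and Ddit3, the stress-induced factor CHOP, at 0.40 and 0.23 (0.32 ± 0.09) with loess and at -0.00 without it. The ratio of Xbp1 on array 2 was more than double that on array 1, which also held for Sel1l, Edem2, Rnf185, Aup1 and Atf6b. That pattern was not particular to these genes. Over all genes 5.03% were 1.5-fold higher on array 2 alone, against 0.592% on array 1 alone.

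Because plasma cells hold high levels of ERAD transcripts, their markers were read beside these results. Of 11 plasma cell markers, all measured and 3 of them saturated in a channel, 5 were higher on both arrays in miR-181b RNA, 0 were lower on both, and 0 passed 1.5-fold. The shares over all genes were 24.4% higher on both arrays, 27.4% lower on both and 0.819% called 1.5-fold higher. Their median was 0.19 (0.05 and 0.37), with a range from 0.07 to 0.48. Ell2, an elongation factor of antibody-secreting cells, was at 0.48 ± 0.08 and Irf4 at 0.36 ± 0.19. Tnfrsf13b was at 0.21 ± 0.16 and Prdm1 (Blimp-1) at 0.19 ± 0.09. The summed intensity of the list was 192318 in miR-181b RNA and 273943 in control RNA on array 1, and 353826 and 172524 on array 2, so that the order of the sums turned with the dye. The 3 saturated markers, Jchain, Pou2af1 and Mzb1, lay in bin 10. Each had a negative ratio on array 1 and a positive one on array 2, as the sums did. How much of the sums they made up was not tested. The part of the plasma cell markers in the ERAD values was not tested.

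All 10 markers of B cells, the labelled cell type, were measured. On both arrays 2 of them were higher, against 24.4% of all genes, and the sign of the other 8 differed between arrays. The median of the 10 markers was 0.18 (-0.30 and 0.70), and 3 were saturated. Cd79a, a chain of the B cell receptor, passed 1.5-fold at 0.16 and 1.56 (0.86 ± 0.70), again mostly on array 2. Summed B cell marker intensity was 225126 in miR-181b and 337635 in control RNA on array 1, and 391719 and 197109 on array 2. The 3 saturated B cell markers, Ms4a1, Cd74 and Cd79b, lay in bin 10 and changed sign in the same way. How much of these sums they made up was not tested.

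In lists of other cell types 0 of the measured genes passed 1.5-fold, against 0.819% of all genes higher and 0.512% lower. Of 14 T cell markers, 12 were measured, with summed intensities from 7121 to 7794. On both arrays 5 T cell markers were higher and 3 lower, where 24.4% and 27.4% of all genes were. Of the macrophage and monocyte markers 6 of 10 were measured, with sums from 3923 to 4083; of the dendritic cell markers 5 of 7, from 3485 to 4481; of the natural killer cell markers 4 of 9, from 1925 to 2687; and of the stromal markers 4 of 7, from 1117 to 1560. Granulocyte and mast cell markers were measured for 4 of 9, with sums from 567 to 683, and erythroid and megakaryocyte markers for 1 of 7, Hba-a1, at 0.39 ± 0.02. The natural killer cell sums were higher in miR-181b RNA on both arrays (2352 against 1925 and 2687 against 1935). So were the macrophage and monocyte sums (4083 against 3932 and 3947 against 3923) and Hba-a1. T cell sums (7392 against 7794 and 7121 against 7503) were lower on both arrays. Granulocyte and mast cell sums (588 against 597 and 567 against 683) were also lower on both. Dendritic cell and stromal sums changed order between arrays. The part of these cell types in the ERAD values was not tested.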

How the data were processed

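Per the file headers, the authors' arrays were read with Agilent Feature Extraction 9.1.3.1, and the deposited scanner files give mean and background intensity per spot and a log10 ratio of Cy5 over Cy3. The deposited series table holds log2 ratios whose scale and direction were found by matching to the scanner's log ratios; both columns (medians -0.06 and -0.07) run as miR-181b over control, and their exact centring is not stated. Background was corrected by normexp (offset 50) and each array by loess in limma 3.58.1 (R 4.3.3), with control spots at weight 0; loess assumes that most genes do not differ at each intensity. The sign of array 2 was turned, flagged outlier spots (7 and 21) were left out and spots of a probe were averaged. Levels are per channel after quantile scaling of the average intensity. The share of spots well above background ran from 64.7% to 67.7% over the 4 channels. Older symbols were updated through RefSeq (GRCm38.p6).

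With 1 RNA per vector no p-value was computed. A gene was called where its mean ratio reached 1.5-fold and both arrays gave its sign. The code was tested on simulated data. All 10 members were described. From the other ERAD genes the 4 highest and 4 lowest of those with the same sign on both arrays were named. From other lists some of the highest genes by the same rule were named. The members and lists were chosen with earlier results of these data known.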

Additional observations from a re-analysis of the deposited data

How the results depend on the processing

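Counts of ERAD genes at 1.5-fold, 2 of 10 with loess, were 0 without loess, 0 with a 2-fold mean and 1.5-fold on each array, 1 with the mean of all probes per gene and 1 with members found by printed gene name alone, a setting added after the data were seen; single arrays gave 0 to 3, where calls over all genes went from 104 (array 1) to 884 (array 2). Their median of 0.32 was -0.079 without loess, 0.24 by printed gene name alone, and 0.29 to 0.35 on single arrays. For the other ERAD genes, 2 of 56 at 1.5-fold became 0 without loess, 0 with the same stricter rule, 1 with a normexp offset of 200 and 1 with the mean of all probes, with 0 to 6 on single arrays. The median of 0.12 became 0.11 with the scanner's log ratio, -0.23 without loess, 0.10 with an offset of 0, 0.10 with an offset of 200, and 0.075 to 0.089 on single arrays. Over all genes, 144 higher and 90 lower calls became 6 and 908 without loess. Signal over background limited 2 of the 22 ERAD probes, and saturation limited 1.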
